A study of Schizosaccharomyces pombe with 30 samples.

Results

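The gene rsd1 (SPAC19G12.07c) of the fission yeast Schizosaccharomyces pombe was followed through all of its features on a splicing array, 1 exon feature, 6 intron features and 6 junction features. These are 13 of the 14556 features of the value table, and rsd1 is 1 of its 5084 genes. It was selected on its own log ratios against wild type on these arrays, a high exon feature with intron features that do not share it, so these values, and the differences drawn from the groups in which it was high, are given as a description, with no test. An exon feature reads all transcripts that hold the exon, an intron feature reads unspliced RNA or excised introns, and a junction feature reads 2 exons already joined.

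Rsd1 is an RNA-binding protein related to the SR proteins, which carry serine-arginine stretches and help the splicing machinery to find introns, and it is the fission yeast relative of human RBM39. In fission yeast it is known to connect the U1 snRNP, the particle that binds the 5′ splice site, with the helicase Prp5, which opens the way for the U2 snRNP at the branch site. Of the genes mutated here, pht1 encodes the histone variant H2A.Z, swr1 the ATPase that places H2A.Z in chromatin, prp16 an RNA-dependent ATPase that acts between the splicing steps, and usp107 a protein of the U1 snRNP.

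The series held 30 two-colour arrays in 10 groups of 3, on each of which RNA of a mutant (Cy5) was set against wild-type RNA (Cy3), with no dye swap and no array of wild type alone. At 30 °C the groups were pht1∆, swr1∆, usp107DAmP and pht1∆ usp107DAmP. At 16 °C, after a shift of 9 h, they were pht1∆, prp16DAmP and pht1∆ prp16DAmP, and at 37 °C, after a shift of 2 h, swr1∆, prp16DAmP and swr1∆ prp16DAmP. All cultures, wild type included, grew in YES5 at 30 °C to mid-log phase before any shift, and total RNA came from a hot acid phenol extraction. A DAmP allele disturbs the 3′ end of a gene's mRNA to lower its abundance. The labels do not say whether the arrays of a group come from separate cultures, so the p-values below measure only the spread between arrays, and the number of arrays limits the precision.

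All values are log ratios of mutant over wild type, read as log2. Array medians over all features lay between -0.00602 and 0.0254. The direction was taken from the dyes in the labels. In 7 pairs of arrays the values correlated below -0.3 over all features, the lowest being swr1∆ at 37 °C replicate 3 with swr1∆ prp16DAmP at 37 °C replicate 1 (r = -0.53). The pht1 feature stood at -0.65 in pht1∆ at 30 °C and at -0.74 at 16 °C. In the arrays of pht1∆ usp107DAmP it was 0.02 and in those of pht1∆ prp16DAmP -0.03, so the arrays of these double mutants go against their labels for pht1. The features of swr1 (-0.19 to -0.11), usp107 (-0.11 and -0.01) and prp16 (-0.19 to 0.28) had means close to 0 in the groups labelled for them. In some of these groups the arrays differed in sign, as usp107 in pht1∆ usp107DAmP (-0.01, 0.45 and -0.78) and prp16 in pht1∆ prp16DAmP (0.49, 0.77 and -0.42). At 37 °C swr1 was below 0 on every array of swr1∆ and swr1∆ prp16DAmP, as was prp16 in prp16DAmP. These groups are therefore named by their labels only. On 2 arrays many intron features held values that occur repeatedly on the same array, 35.9% of them on pht1∆ 30 °C replicate 1 and 21.7% on swr1∆ 30 °C replicate 1, against 0.331 to 7.98% elsewhere. Among the repeated values were rsd1 introns 3, 5 and 6 on swr1∆ 30 °C replicate 1 and rsd1 junction 5-6 on all 3 arrays of pht1∆ at 30 °C. On pht1∆ 30 °C replicate 1 no rsd1 intron was among them, while intron 6 was on replicate 3 of that group. Values of rsd1 in these groups are also given without replicate 1, for its many repeated values over all introns.

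In assembly ASM294v3 of the RefSeq annotation rsd1 lies on chromosome I from 4053604 to 4056272 on the minus strand, with 7 exons, 6 introns and a coding sequence of 1812 bases with the stop, for 603 residues. Which build the array was designed on is not given here, so features were matched to this annotation by systematic ID and by the order of introns. The highest intron number of rsd1 equals its annotated number of introns, as it did in 1989 of 2327 genes with intron features. The exon feature carries the number 2, and exon 2 is the longest exon of rsd1, with 791 bases. Among 1981 genes with several exons, the exon feature carried the number of the longest exon in 83.4%. The 6 introns are shown because the results turn on how each of them compares with the exon feature. Each is the annotated intron read 5′ to 3′ on the strand of the gene, not the array's probe, and capitals mark the first 6 bases, the branch motif and the last 3 bases.
rsd1 intron 1: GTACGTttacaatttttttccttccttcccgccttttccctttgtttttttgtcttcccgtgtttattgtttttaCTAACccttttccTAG
rsd1 intron 2: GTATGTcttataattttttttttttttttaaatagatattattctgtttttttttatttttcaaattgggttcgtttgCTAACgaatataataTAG
rsd1 intron 3: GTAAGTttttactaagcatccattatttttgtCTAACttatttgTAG
rsd1 intron 4: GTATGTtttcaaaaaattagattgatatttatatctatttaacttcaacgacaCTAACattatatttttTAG
rsd1 intron 5: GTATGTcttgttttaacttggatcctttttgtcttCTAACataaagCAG
rsd1 intron 6: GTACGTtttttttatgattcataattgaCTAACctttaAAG

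The introns lie in intron 1 at I:4055873-4055963, intron 2 at I:4054986-4055081, intron 3 at I:4054801-4054847, intron 4 at I:4054555-4054626, intron 5 at I:4054185-4054233 and intron 6 at I:4054069-4054109. Their lengths are 91, 96, 47, 72, 49 and 41 bases in order, against a median of 56 over 5224 annotated introns of at least 30 bases. The 5′ splice site of introns 2, 4 and 5 is GTATGT, which 19.8% of annotated introns carry, and that of intron 3 is GTAAGT, the most common with 27.6%. Introns 1 and 6 begin with GTACGT, the fourth most common 5′ site, at 5.17% of introns. The branch motif was searched in the last 60 bases on the strand of the gene only, as CTAAC or with another last base as CTAAT, and with another middle base as CTGAC or as CTGAT, and 75.3% of annotated introns hold at least 1 of them. All 6 rsd1 introns hold CTAAC, ending 11, 13, 10, 14, 9 and 8 bases before the end of the intron, with a median of 10 over all introns that hold a motif. Introns 1 to 4 end in TAG, as 68.4% of introns do, intron 5 in CAG and intron 6 in AAG. Annotated noncoding transcripts lie on the opposite strand, SPNCRNA.3809 across introns 1 and 2 and SPNCRNA.3808 across introns 5 and 6. They have no feature of their own, which strand the probes read is not known here, and RNA of rsd1 and of these transcripts cannot be told apart.

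The exon feature of rsd1 was high in pht1∆ at 30 °C, at 1.56, 0.79 and 1.02 on the 3 arrays. This is a mean of 1.12 ± 0.39 (SD, n = 3), or 2.18-fold over wild type. All 3 arrays lay well above 0, and replicate 1, the array with the most repeated values, was the highest. Without it the mean was 0.90. In pht1∆ at 16 °C the exon feature stood at 0.62, 0.50 and 0.56, a mean of 0.56 ± 0.06 and 1.48-fold, just under 1.5-fold. These 3 values lay close together and all below those of pht1∆ at 30 °C. The difference between the pht1∆ groups, 16 °C minus 30 °C, was -0.56, and no test is given because it contains the group for which rsd1 was chosen.

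For swr1∆ at 30 °C the exon feature was 1.17, 0.29 and 0.06, a mean of 0.51 ± 0.58. All 3 arrays were above 0, but 1 array carried the mean, and without replicate 1, which holds many repeated values, it was 0.18. At 37 °C the swr1∆ arrays gave -0.08, 0.05 and 0.08, a mean of 0.01. The arrays labelled pht1∆ usp107DAmP gave 0.12, 0.20 and 0.10, a mean of 0.14, well under pht1∆ alone at the same temperature. The difference was -0.98 and the arrays did not overlap, and it too is given without a test. The share of all features whose arrays stood apart in this comparison was not counted, so the separation cannot be read as particular to rsd1.

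In the remaining groups the exon feature stayed near wild type. For prp16DAmP the mean was -0.03 ± 0.10 at 37 °C and -0.04 ± 0.09 at 16 °C. The mean of pht1∆ prp16DAmP was -0.06 ± 0.18, and that of swr1∆ prp16DAmP -0.13 ± 0.07. The lowest group was usp107DAmP, with -0.07, -0.73 and 0.04, a mean of -0.25 ± 0.41 in which replicate 2 stood apart. In the order of the 10 group means, from pht1∆ at 30 °C down to usp107DAmP, the arrays of neighbouring groups overlapped except between the first and second groups, pht1∆ at 30 °C and at 16 °C, and between pht1∆ usp107DAmP and swr1∆ at 37 °C. For these pairs too the share of all features whose arrays stood apart was not counted.

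**Figure D1:**
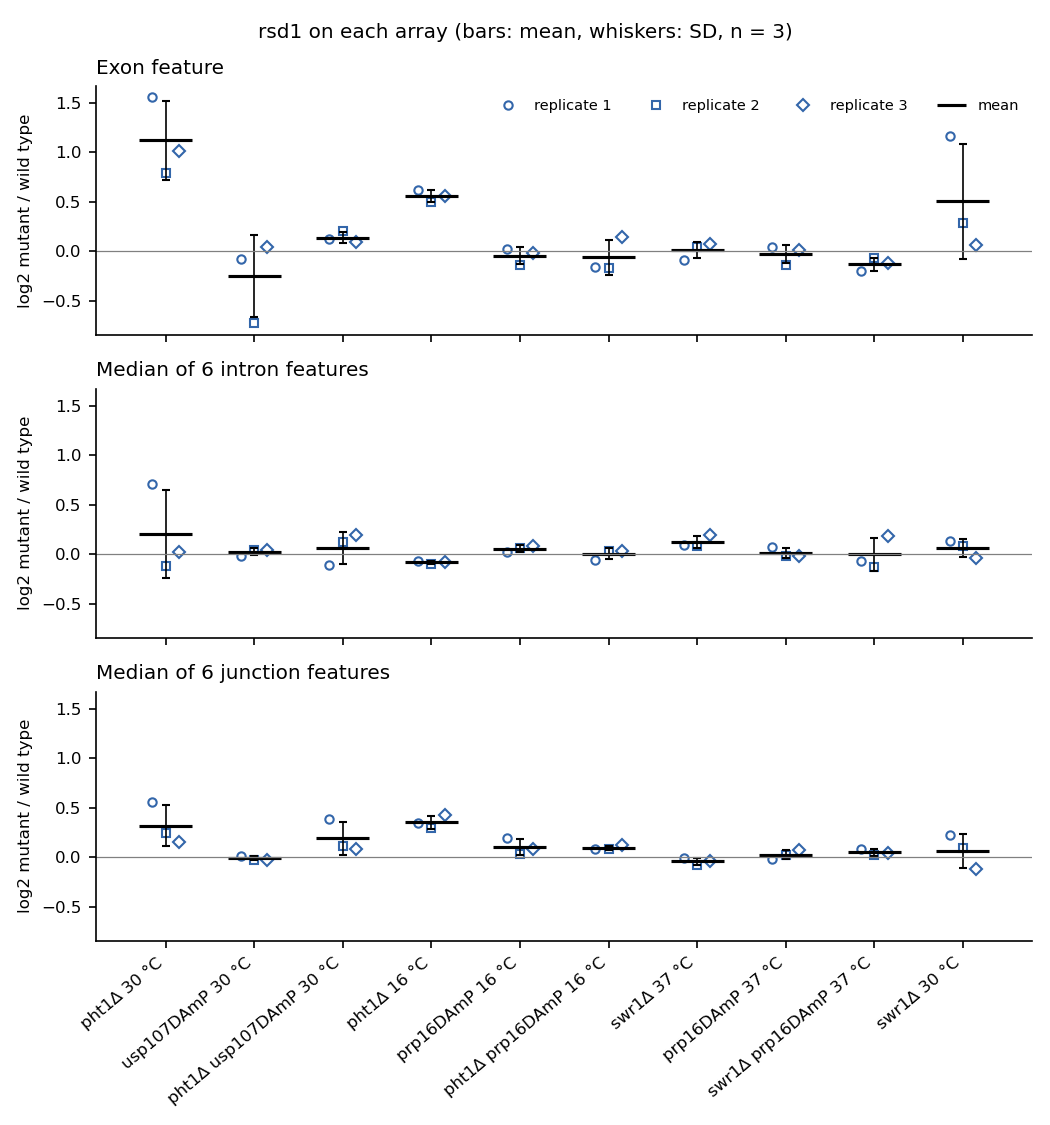
Log2 ratio of mutant over wild type for rsd1 on each of the 30 arrays, by group: the exon feature (top), the median of the 6 intron features (middle) and the median of the 6 junction features (bottom); open symbols are arrays, bars are group means and whiskers the SD (n = 3). The exon feature of pht1∆ at 30 °C lies at 0.79 to 1.56. The intron medians of replicates 1, 2 and 3 there are 0.71, -0.12 and 0.02, and replicate 1 has the highest exon value.

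The introns did not share these values. In pht1∆ at 30 °C the median of the 6 intron features was 0.71, -0.12 and 0.02 on the 3 arrays. On replicate 1 all 6 introns were above 0, on replicate 2 they were so in 1 case and on replicate 3 in 3. None of the 18 intron values exceeded the exon value of its own array. In pht1∆ at 16 °C the intron medians were -0.07, -0.09 and -0.08, slightly below wild type on every array, and again 0 of 18 values exceeded the exon feature.

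Intron 1, the second longest, was at 0.82, -0.16 and 0.16 in pht1∆ at 30 °C, a mean of 0.28 that became 0.00 without replicate 1. Intron 2, the longest, was at 0.76, -0.39 and 0.11, and its mean of 0.16 turned to -0.14 without replicate 1. Intron 3, with the most common 5′ splice site, was above 0 on all 3 arrays, at 0.68, 0.07 and 0.25, a mean of 0.33 ± 0.31 and of 0.16 without replicate 1. It had the highest mean of the 6 introns in this group, and still lay 0.79 under the exon feature. Intron 4 was the most spread, at 0.75, -0.16 and -0.46, a mean of 0.04 that became -0.31 without replicate 1. Intron 5 averaged 0.09 and intron 6, the shortest, -0.07, with -0.08 and -0.16 without replicate 1. Leaving out that array thus turned the sign of introns 2, 4 and 5, while the exon feature kept 0.90. None of the 6 introns held a repeated value on that array.

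In pht1∆ at 16 °C the intron means ran from -0.19 in intron 5 to 0.08 in intron 1. Introns 2, 3, 4 and 5 were below 0 on every array of this group, with means of -0.13, -0.15, -0.13 and -0.19. Intron 1 was at 0.29, 0.03 and -0.08, and intron 6 at -0.02, -0.08 and 0.02, so neither kept one sign. In swr1∆ at 30 °C intron 1 stood out from the rest, at 0.69, 0.19 and -0.00 with a mean of 0.29, while introns 2 to 6 had means of 0.01 to 0.06. Without replicate 1 intron 1 averaged 0.09 there.

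In the groups with no high exon value the introns were also near wild type. Group means of single introns ran from -0.15 in usp107DAmP (intron 5) to 0.21 in swr1∆ at 37 °C (intron 1). Intron 1 was above 0 on all 3 arrays of swr1∆ at 37 °C (0.14, 0.21 and 0.28), as were intron 3 (0.05, 0.19 and 0.25), intron 5 (0.18, 0.08 and 0.30) and intron 6 (0.04, 0.10 and 0.15). The exon feature of that group averaged 0.01. In prp16DAmP and both of its double mutants, in which the second step of splicing is the labelled target, no intron mean of rsd1 lay beyond 0.14 in size.

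The gap between each intron and the exon was expressed as an index, the intron's log ratio minus that of the exon feature on the same array. In pht1∆ at 30 °C the index was -0.85 for intron 1, -0.96 for intron 2, -0.79 for intron 3, -1.08 for intron 4, -1.03 for intron 5 and -1.19 for intron 6. Without replicate 1 they ran from -1.21 (intron 4) to -0.74 (intron 3). All 18 values were negative. The median index was -0.843, -0.908 and -0.997 on the 3 arrays, a narrower range than that of the exon feature, 0.79 to 1.56, while the index of intron 6 alone ran from -1.44 to -0.87. In pht1∆ at 16 °C the index ran from -0.48 (intron 1) to -0.75 (intron 5), with medians of -0.69, -0.60 and -0.64 on the arrays. For swr1∆ at 30 °C the index ran from -0.21 (intron 1) to -0.49 (intron 6). Its array medians there were -1.03, -0.20 and -0.10, so that replicate 1 was far lower than the others. Without replicate 1 the indices averaged -0.30 (intron 2) to -0.08 (intron 1). In usp107DAmP the indices averaged 0.10 to 0.35, and replicate 2, on which the exon feature was -0.73, gave the highest index for every intron.

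**Figure D2:**
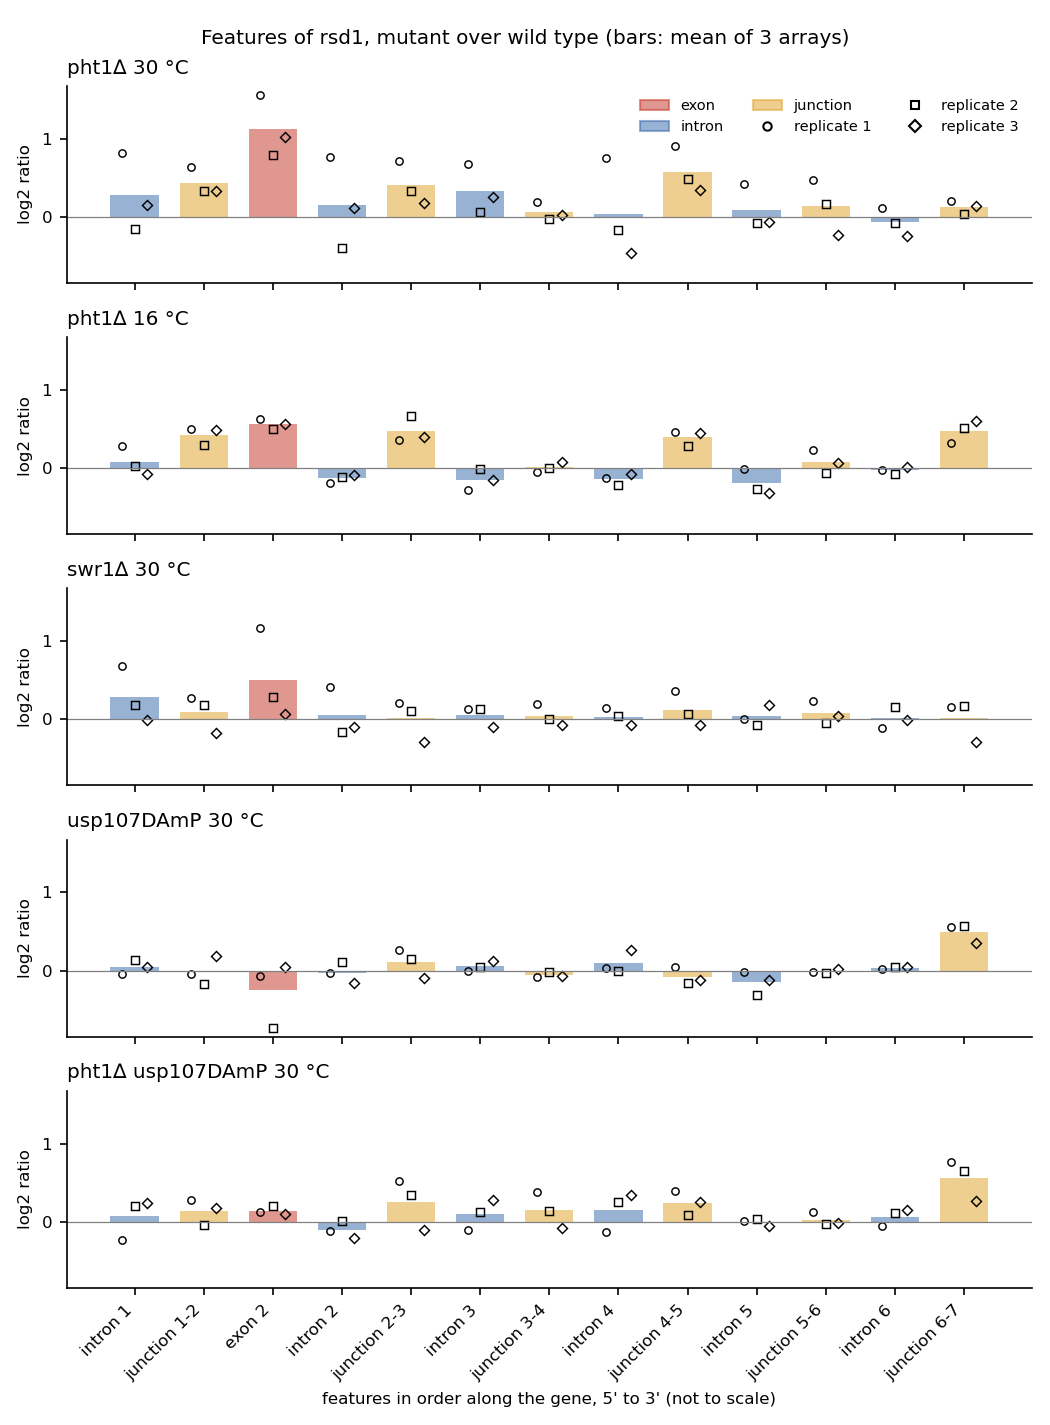
Log2 ratio of mutant over wild type for the 13 features of rsd1 in 5 groups, in order along the gene; bars are means of 3 arrays, coloured by kind of feature, and open symbols are the arrays. In pht1∆ at 30 °C the exon bar (1.12) stands above all others, of which junction 4-5 (0.58) is the highest, and in both usp107DAmP groups junction 6-7 (0.50 and 0.56) is the highest bar.

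Junction features, which read spliced rsd1 mRNA, were uneven along the gene. In pht1∆ at 30 °C junction 4-5 was at 0.91, 0.48 and 0.35, a mean of 0.58 ± 0.29. Junction 1-2 averaged 0.43 (0.64, 0.33 and 0.33) and junction 2-3 averaged 0.41 (0.71, 0.33 and 0.18). All 3 were above 0 on every array, as was junction 6-7 at a mean of 0.13. Junction 3-4, between them, averaged 0.06, and junction 5-6 averaged 0.14. No junction value exceeded the exon value of its array in this group (0 of 18), and the median junction of an array averaged 0.32, against 1.12 for the exon feature. Without replicate 1 junctions 4-5, 1-2 and 2-3 averaged 0.41, 0.33 and 0.25, and junction 5-6 turned from 0.14 to -0.03.

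The same 3 junctions were above 0 on every array of pht1∆ at 16 °C, junction 1-2 with a mean of 0.43, junction 2-3 with 0.48 and junction 4-5 with 0.40. Junction 6-7 joined them, at 0.33, 0.51 and 0.60, a mean of 0.48. Junctions 3-4 (0.02) and 5-6 (0.08) were the lowest here, and junction 3-4 was the lowest in both pht1∆ groups. In this group the junctions lay closer to the exon feature, with a median 0.21 under it as a mean over arrays, against 0.80 under it in pht1∆ at 30 °C. The exon feature was the highest of the 13 features on 3 of 3 arrays of pht1∆ at 30 °C, on 1 of 3 of pht1∆ at 16 °C and on 2 of 3 of swr1∆ at 30 °C, and on no array of the other groups. All junction means of swr1∆ at 30 °C lay between 0.01 and 0.12.

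Junction 6-7, which joins the last pair of exons across the shortest intron, had the highest mean of the 13 features in both groups labelled usp107DAmP. This was not particular to them, as it was also the highest junction in pht1∆ at 16 °C (0.48) and in pht1∆ prp16DAmP (0.15). In usp107DAmP it was at 0.56, 0.58 and 0.35, a mean of 0.50 ± 0.13, and in pht1∆ usp107DAmP at 0.76, 0.65 and 0.27, a mean of 0.56 ± 0.26. All 6 arrays were above 0. They are not independent, since same-numbered arrays of these groups deviated together over all features (r of 0.417 to 0.616). Intron 6 between those exons averaged 0.04 and 0.07 there, and the exon feature -0.25 and 0.14. The next highest junction in usp107DAmP was 2-3, at 0.11. In prp16DAmP at 16 °C junction 3-4 was the highest, at 0.28, 0.17 and 0.25, and at 37 °C no junction mean of any group exceeded 0.22, that of junction 5-6 in swr1∆ prp16DAmP.

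With the median junction in place of the exon feature as the reference, the median index was smaller. It was -0.12 in pht1∆ at 30 °C, with arrays at 0.16, -0.37 and -0.14, so replicate 1 alone was above 0, and without it the mean was -0.25. It was -0.43 in pht1∆ at 16 °C, with arrays at -0.41, -0.39 and -0.50, all below 0. In swr1∆ at 30 °C it was -0.00, and 0.04 without replicate 1. Against the exon feature the medians averaged -0.92 in pht1∆ at 30 °C, -0.64 at 16 °C and -0.44 in swr1∆ at 30 °C, so in pht1∆ at 16 °C the arrays were below 0 with either reference.

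Mutant groups were then compared with each other, a comparison in which a constant dye effect cancels. Of 10 such comparisons, 5 contain a group in which the exon feature of rsd1 was high, pht1∆ at 30 or 16 °C or swr1∆ at 30 °C. They are given as values with no test, since rsd1 was chosen for those levels. The other 5 were tested with limma over all features of each kind, with Benjamini-Hochberg adjustment and a threshold of 0.05. The gene was chosen with the values of these arrays in view, so these tests are no independent support for the choice.

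At 16 °C the exon feature stood at -0.15, -0.17 and 0.14 in pht1∆ prp16DAmP, beside 0.62, 0.50 and 0.56 in pht1∆. The groups did not overlap, and the difference of the means was -0.62, with -0.72 to -0.57 when single arrays were left out. The index of each intron stood apart too, with differences from 0.56 (intron 1) to 0.89 (intron 4). The 6 indices share 1 exon feature and are not independent. The intron features themselves differed by -0.07 to 0.27. Junction 1-2 was -0.00 in pht1∆ prp16DAmP and 0.43 in pht1∆, a difference of -0.43. Junctions 2-3, 4-5 and 6-7 differed by -0.35, -0.33 and -0.33, also with no overlap between arrays, while junctions 3-4 and 5-6 differed by 0.08 and 0.01. The share of all features whose arrays stood apart in this comparison was not counted. These separations therefore cannot be read as particular to rsd1. The pht1 feature went against the label of this double mutant, as given above, and its part in the difference was not tested.

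For swr1∆ at 37 °C minus 30 °C the exon difference was -0.49, with arrays that overlapped, and -0.16 without swr1∆ 30 °C replicate 1. The differences of the indices were 0.41 to 0.64, and those of the introns -0.08 to 0.15. Every junction mean was lower at 37 °C than at 30 °C, by 0.03 to 0.16.

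The 5 tested comparisons called no feature of rsd1. For pht1∆ usp107DAmP minus usp107DAmP, with 0.829% of exon features, 0.0207% of intron features, 0.249% of indices and 0.731% of junctions called, the exon feature differed by 0.39 ± 0.21 (adjusted p = 0.413). Of the measures of rsd1, 1 index and 2 junctions had an unadjusted p under 0.05. The share of all features below it was not counted in this or the other comparisons. Junction 6-7, high in both of these groups, differed by 0.06 (adjusted p = 0.906), with a standard error of 0.13. Without pht1∆ usp107DAmP replicate 3 junction 3-4 became called, at 0.32 (adjusted p = 0.0389). It was the only call on rsd1 that leaving out single arrays changed. The share of all junctions called in that fit was not counted. For pht1∆ prp16DAmP minus prp16DAmP at 16 °C (0.158%, 0.0414%, 0.0415% and 0% called in the same order) and for swr1∆ prp16DAmP minus swr1∆ (2.76%, 0.062%, 0.83% and 0.645%) and minus prp16DAmP at 37 °C (0.0197%, 0%, 0% and 0%), no measure of rsd1 had an unadjusted p under 0.05. For prp16DAmP at 37 °C minus 16 °C (2.07%, 0.579%, 1.29% and 0.817% called), 1 junction had one, and the lowest adjusted p of a junction was 0.295.

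The pattern of rsd1 was set beside other genes with at least 3 introns whose exon feature stood at least 1.5-fold above wild type. In pht1∆ at 30 °C only 2 other genes met this rule, of 629 with enough introns. They were bdp1, which encodes a subunit of the RNA polymerase III factor TFIIIB, with an exon feature of 0.74, and arf6, which encodes a small GTPase of membrane traffic, with 0.66. Their median introns were at 0.11 and -0.16 and their median junctions at -0.12 and -0.19, so in these genes too the introns did not share the value of the exon. The rule takes genes by a high exon feature, and an intron feature below it is favoured by that choice. The gap from exon to median intron was 0.997 in rsd1, larger than in both. Without pht1∆ 30 °C replicate 1, bdp1 stood at 1.03, above the 0.90 of rsd1, and arf6 at 0.54, under the threshold. In rsd1 the junctions were higher than in either (median of means 0.27).

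The rule took 5 other genes in pht1∆ at 16 °C, where rsd1 itself lay just under the threshold. Of the genes taken there, bdp1 (exon 0.79, median intron -0.06, median junction -0.03) resembled rsd1 in its introns but not in its junctions, and cmk1, for a protein kinase, had an exon feature of 0.59, a median intron of 0.09 and a median junction of 0.52. In loc1, in contrast, the median intron was at 0.63 beside an exon of 0.70. In 3 of these 5 genes the median intron was under 50% of the exon feature, as it was in 7 of 9 genes in usp107DAmP and 11 of 18 in pht1∆ usp107DAmP. There vma3, which encodes a subunit of the vacuolar proton pump, had the highest exon feature, at 1.14, with a median intron of 0.11 and a median junction of 0.31. In swr1∆ at 30 °C the rule took SPAC3G6.05 (exon 1.07), bdp1 (0.95) and pfd5, a prefoldin subunit (0.71), with median introns of 0.25, -0.06 and 0.11. Without replicate 1 of this group their exon features were at 1.29, 1.08 and 0.84. There the median intron was under 50% of the exon feature in 3 of 3, as in 2 of 2 in pht1∆ at 30 °C.

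**Figure D3:**
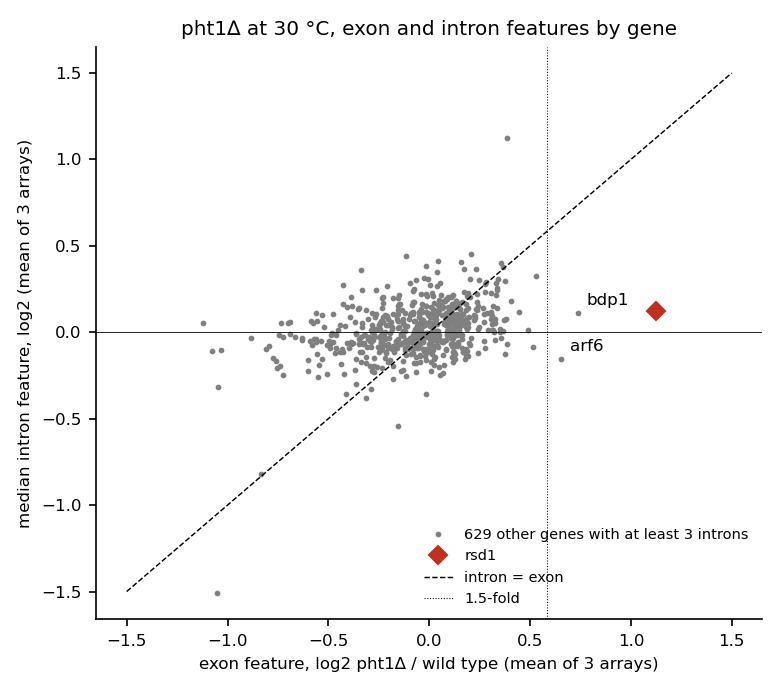
Exon feature (horizontal axis) against the median intron feature (vertical axis) in pht1∆ at 30 °C, both as log2 of mutant over wild type and means of 3 arrays, for rsd1 (diamond) and 629 other genes with at least 3 introns. rsd1 lies farthest right, at an exon value of 1.12 and an intron median of 0.12, followed by bdp1 at 0.74 and arf6 at 0.66.

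Genes whose exon feature varied most like that of rsd1 were looked up by the Pearson correlation over the 10 group means, among 545 genes with a range of at least 1. The points share arrays, the wild-type channel and the dyes, and the correlations are a description. The gene with the most similar pattern was SPBC3E7.11c (r = 0.960, Spearman's rho 0.891), at 1.05, 0.91 and 0.98 in pht1∆ at 30 °C, 1.11, 0.34 and 0.52 in pht1∆ at 16 °C and 1.25, 0.40 and 0.23 in swr1∆ at 30 °C. It has 2 introns, whose median stood at 0.07 in pht1∆ at 30 °C, so its introns too stayed near wild type. Its median junction was at -0.14 there, -0.20 in pht1∆ at 16 °C and 0.12 in swr1∆ at 30 °C. In both pht1∆ groups it thus lay below wild type, where the median junction of rsd1 lay above. Next came ght5, which encodes a hexose transporter (r = 0.948), with a mean of 2.15 in pht1∆ at 30 °C, 0.70 at 16 °C and 1.24 in swr1∆ at 30 °C. The other genes of this group were ste7 (r = 0.940), aim18 (0.937), SPBPB7E8.02 (0.937) and rnf13 (0.934), with means of 0.76 to 1.27 in pht1∆ at 30 °C. Replicate 1 of pht1∆ at 30 °C was the highest array of its group in all 6 genes, as in rsd1. Without that array the means there were 0.70 in rnf13, 0.78 in aim18, 0.80 in ste7, 1.02 in SPBPB7E8.02, 0.95 in SPBC3E7.11c and 1.64 in ght5. Except for SPBC3E7.11c, none of these 6 genes has an intron feature. Replicate 1 of swr1∆ at 30 °C, an array with many repeated values, was the highest of its group in all 6 of these genes as in rsd1, with 2.01 in ght5, 1.05 in aim18, 0.94 in ste7, 0.89 in SPBPB7E8.02 and 0.57 in rnf13. Without it the mean of the group was 0.31 in SPBC3E7.11c, 0.85 in ght5 and -0.10 in ste7. Without replicate 1 of swr1∆ and of pht1∆ at 30 °C the 6 correlations were 0.881 (ste7) to 0.958 (SPBC3E7.11c).

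By the median intron feature, the most similar genes among the 629 were nop52, an rRNA processing factor (r = 0.904, rho 0.855), rix7, an ATPase of ribosome assembly (r = 0.798), and did2, of the ESCRT machinery (r = 0.793). Without replicate 1 of both 30 °C groups their r was 0.544, 0.762 and 0.507. Their medians stayed between -0.10 and 0.17 in all groups. For rsd1 the median over introns of the group means lay between -0.13 and 0.13.

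**Figure D4:**
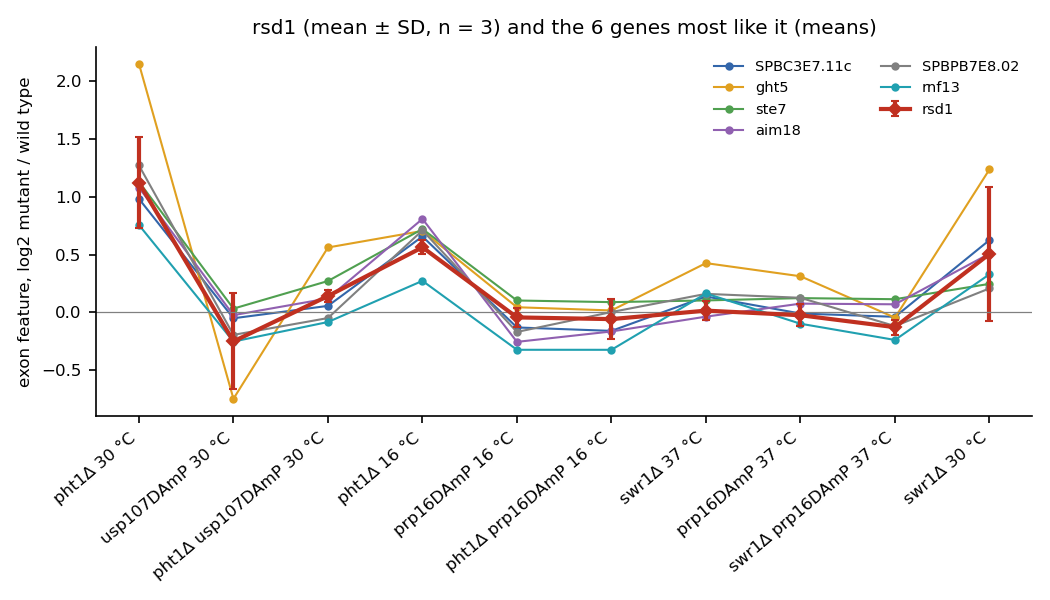
Exon feature as log2 of mutant over wild type in the 10 groups for rsd1 (diamonds, mean with SD, n = 3) and the 6 genes with the most similar pattern (means). Lines only join the values of a gene across groups; pht1∆ at 30 °C is the highest group of rsd1 (1.12) and of ght5 (2.15).

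Of the 6 genes nearest to rsd1 on chromosome I, 3 on each side, SPAC19G12.09 had the highest means in both pht1∆ groups. It averaged 0.58 in pht1∆ at 30 °C with arrays from -0.09 to 1.16, and 0.82 at 16 °C with arrays from 0.69 to 1.06, each above the rsd1 arrays of that group. Its means were also 0.73 in usp107DAmP and 0.69 in pht1∆ usp107DAmP, with replicate 3 below 0 in each. hta2, a gene for histone H2A at a distance of 285 bases on the left, stood below wild type in both pht1∆ groups. It was at -0.20, -0.43 and -0.12 in pht1∆ at 30 °C (mean -0.25) and -0.47, -0.59 and -0.40 at 16 °C (mean -0.49). In swr1∆ at 30 °C hta2 averaged -0.39, with replicate 3 at 0.01. In pht1∆ usp107DAmP it averaged 0.25, where rsd1 stood at 0.14. scs7, a fatty acid hydroxylase gene 503 bases to the right, was at 0.08 and -0.07 in the pht1∆ groups. Farther left, mce1 averaged -0.24 and -0.33 in pht1∆ at 30 and 16 °C, and dal1 -0.12 and -0.05. On the right, cpy1, for vacuolar carboxypeptidase Y, averaged 0.11 and 0.34.

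Transcripts of the proteins that Rsd1 works beside were read from their exon features in 4 lists of 29 genes in all, covering SR proteins and their kinases (5), U1 snRNP proteins (9), Prp5 with the U2 snRNP, SF3a and SF3b (12) and U2AF with the branch site binding protein (3). None of the 29 stood above rsd1 in pht1∆ at 30 °C, pht1∆ at 16 °C or swr1∆ at 30 °C. This rank was favoured by the choice of rsd1 for its high exon feature and is no finding about the lists. In swr1∆ at 30 °C rsd1 stood at 0.18 without replicate 1, and the rank was not taken again there. In pht1∆ at 30 °C limma called 1 of 29 higher and 5 lower, where 8.82% of all genes were called higher and 16.9% lower, and the list's median was 0.02 against -0.03 over all genes. usp109, for a U1-associated RNA-binding protein, fell by 0.89, lea1, for a U2 snRNP protein, by 0.68, and prp12 and ini1, both for SF3b subunits, by 1.01 and 0.69. uaf2, the small U2AF subunit, fell by 0.32, and usp103, a U1 protein, rose by 0.35. All 5 SR genes and kinases stayed uncalled, with a median of 0.09. In a fit to the arrays of this group alone 3 of 29 were called, and without replicate 1 there were 6. For such other fits, here and below, the share of all genes called was not counted.

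In pht1∆ at 16 °C limma called 1 higher and 2 lower, with 8.74% and 11.5% of all genes. usp109 fell by 1.01 and lea1 by 0.51, as in the 30 °C group, and uaf2 rose by 0.49, opposite to its value at 30 °C. In swr1∆ at 30 °C 0 were called higher and 1 lower (sap62, an SF3a subunit, by 0.38), with 1.91% and 3.65% of all genes. An unadjusted p of limma under 0.05 was found for 9 of 29, and the share of all genes below it was not counted. Without replicate 3 of this group limma called 5 of 29.

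In usp107DAmP limma called 2 higher and 6 lower, with 8.62% and 11.9% of all genes, and all 4 calls among the U1 proteins were lower, prp39 by 0.55, usp109 by 0.43, luc7 by 0.26 and usp102 by 0.22. Of the other lists, prp11, which encodes the Prp5 helicase that Rsd1 binds, rose by 0.30 and ini1 by 0.46, and sap62 and sap61 fell by 0.23 and 0.18. These 8 calls rest on the arrays kept, with 2 of 29 called without usp107DAmP replicate 1, 1 without replicate 2 and 0 in a fit to the arrays of this group alone. In pht1∆ usp107DAmP 2 were higher and 11 lower, with 18% and 24.4% of all genes, and 4 of 5 SR genes and kinases were among the lower, srp2 by 0.50, lkh1 by 0.37, srp1 by 0.29 and prp4 by 0.22. There usp109 fell by 1.29, prp39 by 0.91 and sap10, an SF3b subunit, by 0.79, while usp101, for another U1 protein, rose by 0.71 and sap145 by 0.39. luc7, sap114, sap61 and prp2 fell by 0.28, 0.27, 0.19 and 0.26. In a fit to the arrays of this group alone 1 of 29 was called, and with scaled arrays 7.

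At 16 °C prp16DAmP had 1 higher and 7 lower (5.43% and 11.9% of all genes), led by the SR gene srp2, which fell by 0.63, and prp39, which fell by 0.48, with dsk1, sap10, uaf2, sap114 and sap62 lower by 0.29 to 0.43 and usp108 higher by 0.35. Without replicate 1 of this group 2 of 29 were called and without replicate 2 there were 5. The double mutant pht1∆ prp16DAmP had 2 higher and 7 lower (6.98% and 16.4%), with prp39 lower by 0.92, srp2 by 0.75, sap10 by 0.50, usp109 by 0.41, lea1 by 0.38, prp10 by 0.30 and sap114 by 0.21, and usp108 and prp2 higher by 0.51 and 0.32. Without its replicate 1, 2 of 29 were called. At 37 °C limma called 0 of 29 in swr1∆ (0.888% of all genes higher and 0.158% lower), in prp16DAmP (0.0395% and 0.0789%) and in swr1∆ prp16DAmP (0.0197% and 0.335%). In the same order 6, 1 and 5 of the 29 had an unadjusted p of limma under 0.05, and the share of all genes below it was not counted. Without replicate 3 of swr1∆ prp16DAmP 2 of 29 were called, and with arrays scaled to equal spread 6 were called in swr1∆, 2 in prp16DAmP and 1 in swr1∆ prp16DAmP.

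**Figure D5:**
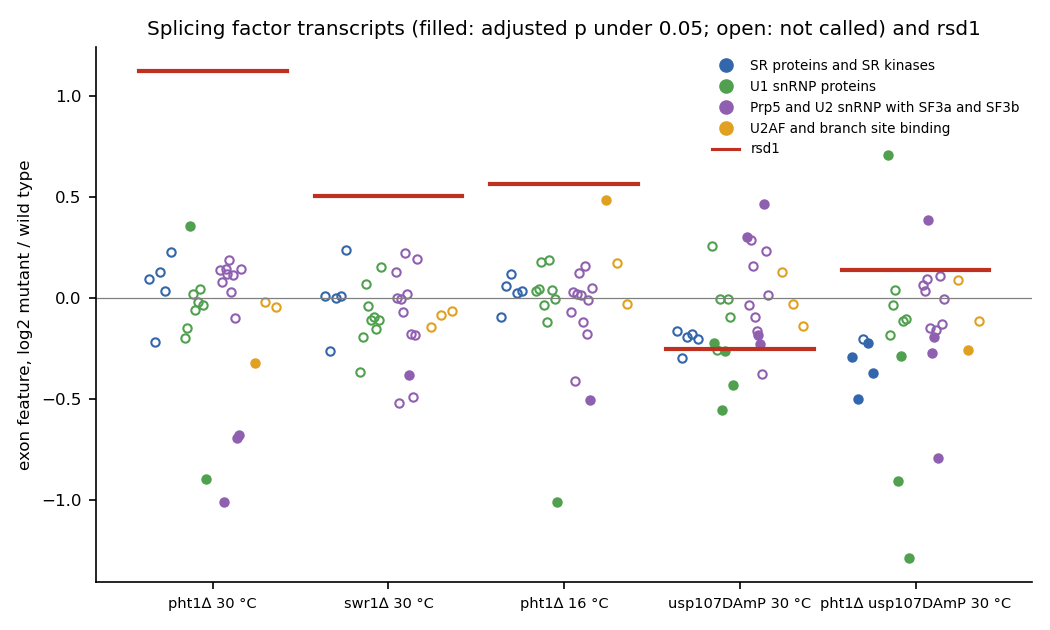
Exon features of 29 splicing factor transcripts, as log2 of mutant over wild type (means of 3 arrays), in 5 groups, coloured by list; filled points have an adjusted p under 0.05 (limma) and red bars mark rsd1. In pht1∆ at 30 °C, swr1∆ at 30 °C and pht1∆ at 16 °C the bar of rsd1 (1.12, 0.51 and 0.56) lies above all 29 points. The choice of rsd1 for its high exon feature favoured this rank.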

How the data were processed

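The deposited table holds 1 value per feature and array, log ratios that are read here as log2 of mutant (Cy5, per the labels) over wild type (Cy3); the authors' background correction, normalization and probe summary and the base of the logarithm are not stated in the sources at hand. Were they natural logarithms, log2 ratios would be larger by a constant factor and p-values and correlations would stay, but folds and the genes taken by a fold or range threshold would differ. No value was missing, and signal over background was not used here. Exon, intron and junction features and the index (4817 introns) were each fitted in R 4.3.3 by limma 3.58.1 as 1 model of all 30 arrays, with a mean for each group (lmFit, contrasts.fit, eBayes). Tests were two-sided, p-values were adjusted by Benjamini-Hochberg over the whole class, and the threshold was 0.05. Errors are the SD over 3 arrays, or limma's standard error where SE is written. For single values, 3 against 3 arrays cannot go below an exact permutation p of 0.1, so none is given. The fit was tested on simulated data for pht1∆ usp107DAmP minus usp107DAmP, where it recovered 92% of exon shifts of 1 and 49% of shifts of 0.5 over 5069 features, with 4.08% of its calls false, and 81% and 27% of index shifts over 4817, with 6.09% false. The simulation drew normal noise independently for each array, with 1 spread per feature and no shift in any other group. In the data the same-numbered arrays of these groups deviated together (r of 0.417 to 0.616), so these rates need not hold there.

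The gene, the splicing factor lists and the tests were chosen with earlier results of these data known. The differences pht1∆ prp16DAmP minus pht1∆ at 16 °C and swr1∆ at 37 °C minus 30 °C had been planned as tests of rsd1 and are given without one, since they hold levels that rsd1 was chosen for. Named are all rsd1 features, the 6 and 3 most similar genes, the 3 neighbours on each side, the called list members up to 4 per list and group by size, and up to 5 genes by exon feature in the comparison with other genes. List symbols were updated to the annotation (the helicase Prp5 is annotated as prp11). Equal replicate numbers were checked by the correlation of deviations from group means. It was over 0.1 for all 3 numbers in pht1∆ usp107DAmP minus usp107DAmP (0.417 to 0.616), pht1∆ prp16DAmP minus prp16DAmP (0.137 to 0.273) and swr1∆ minus pht1∆ at 30 °C (0.291 to 0.567), and not in the others. Alternatives were scaled arrays, centring of each feature class, leaving out each array, fits to the compared groups alone, a replicate block, junctions as the reference of the index and, chosen after seeing the data, leaving out the arrays with the most repeated values.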

Additional observations from a re-analysis of the deposited data

Results flagged for a closer look

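Intron 3 of rsd1 differed in sign between the temperatures of pht1∆. It averaged -0.145 at 16 °C, with all 3 arrays below 0 (-0.27, -0.01 and -0.15), and 0.333 at 30 °C, with all 3 arrays above 0 (0.68, 0.07 and 0.25). The difference was not tested, and without replicate 1 of the 30 °C group, the array with the most repeated values, the 30 °C mean was 0.16. The value of intron 3 on that array was not a repeated one. The means of introns 2, 4 and 5 differed in sign too, with arrays that overlapped between the groups. They were 0.16, 0.04 and 0.09 at 30 °C and -0.13, -0.13 and -0.19 at 16 °C. The share of all introns whose arrays stood apart was not counted.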

How the results depend on the processing

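The exon difference between pht1∆ prp16DAmP and pht1∆ at 16 °C, given without a test, was -0.577 with each feature class centred, -0.514 with scaled arrays and -0.72 to -0.568 when single arrays were left out. In the 5 tested comparisons the replicate block changed no call on rsd1, and the exon feature of pht1∆ usp107DAmP minus usp107DAmP was 0.393 under the block (limma's adjusted p = 0.369). The block is an effect of replicate number shared by all groups, so pairs of arrays within a single comparison were not modelled. Scaling, centring and fits to the compared arrays alone changed no call there either, and leaving out single arrays changed that of junction 3-4 only.

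Of levels against wild type, scaling moved the exon feature of pht1∆ at 16 °C to 0.469 and its median intron to -0.0691. Centring moved the median intron to -0.137 there, to -0.0195 in usp107DAmP and to 0.00243 in prp16DAmP at 16 °C, and the median junction of usp107DAmP to 0.0377. It subtracted class medians of -0.0778 to 0.0162 for exons, -0.0104 to 0.116 for introns and -0.124 to 0.0646 for junctions.

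Counts of called list members moved most. With scaled arrays limma called 4 of 29 in usp107DAmP, 7 in pht1∆ usp107DAmP, 5 in prp16DAmP at 16 °C, 2 in prp16DAmP at 37 °C, 1 in swr1∆ prp16DAmP and 6 in swr1∆ at 37 °C. With the arrays of 1 group alone it called 3 in pht1∆ at 30 °C, 0 in usp107DAmP, 1 in pht1∆ usp107DAmP, 3 in prp16DAmP at 16 °C, 4 in prp16DAmP at 37 °C and 0 in swr1∆ at 30 °C, where centring gave 2. Leaving out single arrays gave 1 to 9 in usp107DAmP, 2 to 9 in prp16DAmP at 16 °C, 2 to 6 in pht1∆ prp16DAmP, 0 to 2 in swr1∆ prp16DAmP and 1 to 5 in swr1∆ at 30 °C. The share of all genes called under these settings was not counted, and the cause of these shifts was not tested. Signal over background was not used here, so dim features could not be told from bright ones.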
